A study of Homo sapiens with 36 samples.

Results

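The aminoacyl-tRNA synthetases, the enzymes that load each amino acid onto its tRNA, were described across 12 groups of HK-2 cell arrays, with the cytosolic enzymes set against the mitochondrial ones. The list held 35 genes, of which 19 encode cytosolic enzymes and 16 encode mitochondrial enzymes with symbols ending in 2. Only probe sets that the platform annotation gives to a single gene were used, and of these the brightest on average stood for its gene. A gene counted as measured when 3 or more of the 36 arrays exceeded 4 on the log2 scale of the deposited values. By this rule 32 of the 35 genes were measured (17 cytosolic and 15 mitochondrial), out of 11092 genes in all. MARS1, QARS1 and TARS2 were not measured, because the annotation names further genes for their probe sets. The rule used the brightness of a probe set and no comparison between groups.

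HK-2 is an immortalized line of human kidney proximal tubule cells, and RNA was hybridised from cells grown to near confluence and then treated for a set time. There were 2 sets of 18 arrays with separate vehicle groups. In the first, cells were given vehicle, the compound labelled CdCl or the compound labelled Di, for 12 h or for 48 h. In the second, cells received the compound labelled Kbr at a low dose, at a high dose, or vehicle, for 24 h or 48 h. The labels do not spell out these compound names, the amounts or the vehicle. Each of the 12 groups held 3 arrays that the labels call biological replicates, and this number limits the precision of all values here. All groups shared the same cell line, and no genetic change is named for any of them. CdCl and Di were compared with the same vehicle arrays, and so were the low and high doses of Kbr.

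Cells keep separate sets of these enzymes for the ribosomes of the cytosol and for the ribosomes of mitochondria. Nearly all mitochondrial enzymes come from nuclear genes of their own, whereas GARS1 (glycine) and KARS1 (lysine) each make both forms from a single gene and were counted as cytosolic. Many cytosolic synthetase genes are known targets of ATF4, the transcription factor made when the initiation factor eIF2 is phosphorylated during amino acid shortage or endoplasmic reticulum stress. ATF4 binds with partners at a composite element whose core reads TGATGNAA, where N is any base.

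Stretches of 30 bases around that core are shown for the synthetase genes that hold it near their start, because 6 measured cytosolic genes that hold it were higher in vehicle at 48 h than at 12 h. The windows searched ran from 250 bases before to 50 bases after the annotated start of each gene (RefSeq, GRCh38.p14), on both strands, and the core is in capitals.
TARS1: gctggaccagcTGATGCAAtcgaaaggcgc
GARS1: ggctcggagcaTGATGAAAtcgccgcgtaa
IARS1: gcgcacggaggTGATGCAAcgcgctgaaaa
CARS1: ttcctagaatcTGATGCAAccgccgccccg
MARS1: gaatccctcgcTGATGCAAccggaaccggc
AARS1: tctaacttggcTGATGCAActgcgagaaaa
NARS1: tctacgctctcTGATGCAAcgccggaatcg
YARS2: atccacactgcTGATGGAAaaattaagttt
The stretches lie at chr5:33440956-33440985 for TARS1, chr7:30594834-30594863 for GARS1, chr9:92293692-92293721 for IARS1 and chr11:3057407-3057436 for CARS1. Those of MARS1, AARS1, NARS1 and YARS2 lie at chr12:57488053-57488082, chr16:70289675-70289704, chr18:57621804-57621833 and chr12:32756076-32756105. The IARS1, CARS1 and AARS1 stretches are printed from the plus strand and the others from the minus strand. A window was available for 30 of the 35 genes, and not for AARS2, LARS1, VARS1, VARS2 and YARS1. A gene with several annotated starts had several windows. The core was present in 7 of 21 windows of 16 cytosolic genes and in 1 of 18 windows of 14 mitochondrial genes, against 3.62% of all 35116 windows. The stricter form TGATGCAA, a part of the same search, was present in 6 of the cytosolic and in 0 of the mitochondrial windows, against 0.866% of all windows. A match is a description of these letters and not a binding site, and MARS1 has no measured value here.

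The cell line was checked against its markers before the comparisons. Of 12 markers of renal tubular epithelium, 6 were measured (PAX8, CDH6, KRT8, KRT18, KRT19 and EPCAM), and PAX2, GGT1, ANPEP, AQP1 and LRP2 had no probe set above the floor of 4 by the rule. Of 6 fibroblast markers, COL1A1, DCN and LUM were measured, while 0 of 4 endothelial and 0 of 4 leukocyte markers were. The beta-actin control probe sets at the 3' and 5' ends, whose difference grows as RNA breaks down, had mean differences by group of 1.40 to 1.84 in the CdCl and Di set and of 0.87 to 1.06 in the Kbr set. Comparisons were therefore made within a set.

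Between 12 h and 48 h of vehicle most cytosolic enzymes rose, and the mitochondrial ones split. In the vehicle arrays of the CdCl and Di set, 12 of 17 cytosolic genes were higher at 48 h than at 12 h and 1 was lower, where 18.3% of all genes tested were higher and 27.3% lower by the same test (limma, Benjamini-Hochberg adjusted p below 0.05 over 11092 genes). Of 15 mitochondrial genes, 3 were higher and 6 lower. The median log2 difference was 0.63 over the cytosolic genes and -0.08 over the mitochondrial genes, beside -0.07 over all genes. In such bulk RNA, fewer cells of a type and less RNA per cell cannot be told apart.

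WARS1, which charges tryptophan, had log2 values of 9.39, 9.48 and 9.63 at 12 h and of 11.72, 11.66 and 11.75 at 48 h. All 3 later arrays were therefore far above all 3 earlier ones, a difference of 2.21 (SE 0.20, 4.62-fold, limma adjusted p = 9.25e-10). AARS1, the alanine enzyme, went from 9.17, 9.16 and 9.06 to 11.22, 11.26 and 11.48, a difference of 2.19 (SE 0.25, 4.55-fold, adjusted p = 4.94e-08). SARS1, the serine enzyme, went from 10.70, 10.57 and 10.59 to 12.41, 12.34 and 12.44, a difference of 1.78 (SE 0.21, adjusted p = 1.14e-07). In each of these genes the spread within a group was small against the step between the times.

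A second tier rose by less. CARS1 (cysteine) moved from 9.49, 9.54 and 9.60 to 11.04, 10.88 and 11.10, a difference of 1.46 (SE 0.24, adjusted p = 1.62e-05). GARS1 moved from 11.21, 11.35 and 11.21 to 12.59, 12.61 and 12.61, a difference of 1.35 (SE 0.24, adjusted p = 3.59e-05). YARS1 (tyrosine) moved from 9.51, 9.82 and 9.54 to 10.84, 11.05 and 10.93, a difference of 1.32 (SE 0.20, adjusted p = 4.78e-06). Groups did not overlap in any of these genes. IARS1 (isoleucine) rose by 1.18 (SE 0.09), FARSA (the catalytic subunit for phenylalanine) by 0.69 and NARS1 (asparagine) by 0.63, the last from 12.64, 12.50 and 12.39 to 13.10, 13.21 and 13.13. EPRS1, the fused enzyme for glutamate and proline, rose from 11.06, 11.31 and 11.32 to 11.63, 11.67 and 11.80, a difference of 0.47 (SE 0.15, adjusted p = 0.0107). TARS1 (threonine) rose by 0.45 and LARS1 (leucine) by 0.44, where 3 less bright probe sets of LARS1 gave 0.48, 2.16 and -0.04. Less bright probe sets also gave 0.95 and 2.16 for EPRS1, 1.56 and 3.32 for CARS1, 0.25 for FARSA and 0.61 for YARS1. The calls for EPRS1 and TARS1 were lost without replicate 1 of vehicle at 12 h, and leaving out each of the 6 arrays in turn gave 10 to 12 higher cytosolic genes.

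HARS1, the cytosolic histidine enzyme, went the other way. Its values were 10.02, 10.03 and 9.76 at 12 h and 9.36, 9.42 and 9.42 at 48 h, a difference of -0.54 (SE 0.09, adjusted p = 1.97e-05). It was the one cytosolic gene past the test in that direction, and the call held without any of the 6 arrays.

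The mitochondrial genes split. LARS2 (leucine) fell from 9.01, 8.78 and 8.75 to 7.97, 7.93 and 7.93, a difference of -0.91 (SE 0.12, adjusted p = 1.09e-06). CARS2 fell from 7.52, 7.26 and 7.78 to 6.64, 6.61 and 6.63, a difference of -0.89 (SE 0.20, adjusted p = 0.000764). AARS2 fell by 0.71 and YARS2 by 0.53 on the log2 scale. FARS2 (-0.41) and IARS2 (-0.18) also passed the test, but not after each array was centred on its median, with adjusted p = 0.0772 and 0.487. MARS2 (methionine) was higher by 0.82, from 4.24, 4.81 and 3.86 to 5.36, 5.01 and 5.00, values close to the floor of 4. PARS2 (proline) was higher by 0.40 and NARS2 (asparagine) by 0.26. Leaving out each array in turn gave 1 to 3 higher and 4 to 6 lower mitochondrial genes, with MARS2 lost without replicate 3 of vehicle at 12 h or replicate 1 at 48 h. PARS2 was lost without any 1 of the 12 h arrays or replicate 3 at 48 h, and NARS2 without replicate 3 at 48 h. FARS2 was lost without 3 and IARS2 without 4 of the 6 arrays in turn.

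For 12 amino acids both the cytosolic and the mitochondrial enzyme were measured. The cytosolic member had the larger log2 difference in 9 of the 12 pairs, with a median excess of 1.35 and a range from -0.47 to 2.90. The widest pair was alanine, where AARS1 rose by 2.19 and AARS2 fell by 0.71. The cysteine pair was apart by 2.35 and the tryptophan pair by 2.28. The mean log2 value of the 17 cytosolic genes rose from between 10.55 and 10.58 on the 12 h arrays to between 11.29 and 11.36 on the 48 h arrays, while that of the 15 mitochondrial genes went from between 8.01 and 8.04 to between 7.83 and 7.90. Ranges of both classes were free of overlap between the times.

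**Figure D1:**
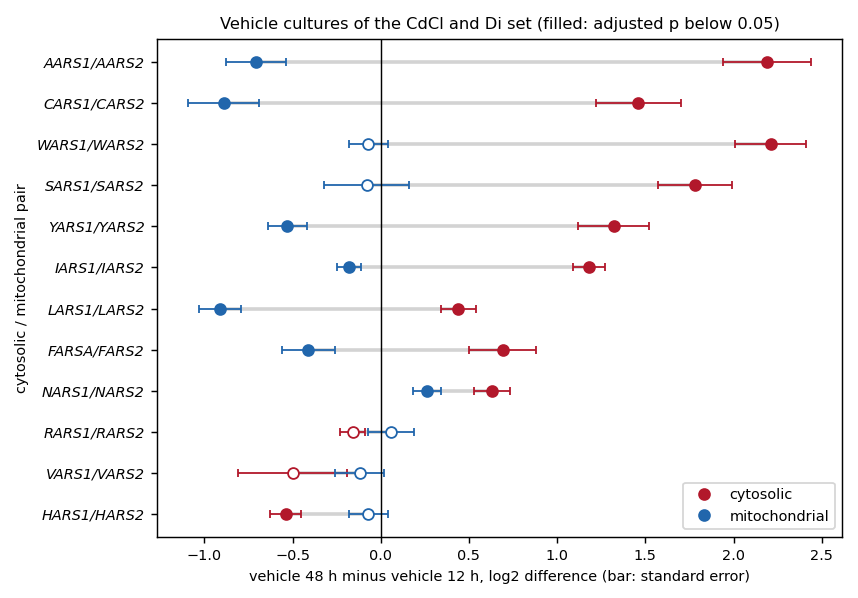
Log2 difference between vehicle at 48 h and vehicle at 12 h (CdCl and Di set) for each amino acid with both enzymes measured, cytosolic and mitochondrial member side by side, with bars for the SE of the model. The alanine, cysteine and tryptophan pairs stand widest apart, and in 9 of 12 pairs the cytosolic member lies higher.

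The 6 measured cytosolic genes whose windows hold the TGATGNAA core (AARS1, CARS1, GARS1, IARS1, NARS1 and TARS1) were all among the 12 that rose, with differences of 0.45 to 2.19 and a median of 1.27. Of the 8 measured cytosolic genes whose windows do not hold it (EPRS1, FARSA, FARSB, HARS1, KARS1, RARS1, SARS1 and WARS1), 4 rose and 1 fell, with a median of 0.25 and a range from -0.54 to 2.21. SARS1 (1.78) and WARS1 (2.21) were thus among the largest rises with no such letters in their windows. The multisynthetase complex, a cytosolic assembly that holds several of these enzymes on scaffold proteins, contributed 5 measured enzymes (EPRS1, IARS1, KARS1, LARS1 and RARS1), of which 3 rose, with a median of 0.44. Of the 12 cytosolic enzymes outside it, 9 rose and 1 fell, with a median of 1.01. AIMP1, a scaffold of the complex, differed by 0.17 and did not pass the test.

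Other genes of the amino acid response moved over the same interval. Of 32 measured genes of an ATF4 and amino acid response list that left out the synthetases, 26 were higher at 48 h and 0 lower, with a median of 1.49. Over all genes 18.3% were higher and 27.3% lower. ATF4 itself went from 11.56, 11.51 and 11.57 to 13.34, 13.33 and 13.15, a difference of 1.72 (SE 0.09, adjusted p = 1.79e-14). ASNS, which makes asparagine, rose by 2.89 (SE 0.41), DDIT3, a stress transcription factor, by 4.99 (SE 0.58), ATF3 by 5.52 (SE 0.69) and NUPR1 by 4.47 (SE 0.37). Of 14 measured mitochondrial translation factors and tRNA enzymes, 4 were higher and 3 lower. The 3 measured fibroblast markers were all lower at 48 h (log2 of their sum 11.33 to 11.46, against 12.38 to 12.50 at 12 h), and the mean actin difference between 3' and 5' ends was 1.5 against 1.84. Their part in these differences was not tested.

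The second set gave no such rise. Between vehicle at 24 h and at 48 h in the Kbr set, 0 of 17 cytosolic genes were higher and 2 lower, where 5.08% of all genes were higher and 7.16% lower (limma, adjusted p below 0.05). At an unadjusted p below 0.05 the counts were 0 higher and 3 lower. HARS1 was 10.02, 9.87 and 10.25 at 24 h and 9.38, 9.52 and 9.66 at 48 h, a difference of -0.53 (SE 0.09, adjusted p = 0.000412), a fall also seen in the vehicle arrays of the first set. RARS1 (arginine) was lower by 0.29 on the log2 scale, and among mitochondrial genes NARS2 was lower by 0.27 and 0 were higher. WARS1 had values of 9.62, 9.54 and 9.98 at 24 h and of 9.48, 9.17 and 9.38 at 48 h. Replicate numbers paired the arrays of this set, and with the number as a block VARS1 (valine, adjusted p = 0.000104) and KARS1 (adjusted p = 0.0249) were lower too, for 5 members called in place of 3. The intervals differ between the sets (12 h to 48 h, and 24 h to 48 h), so they were not compared further.

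**Figure D2:**
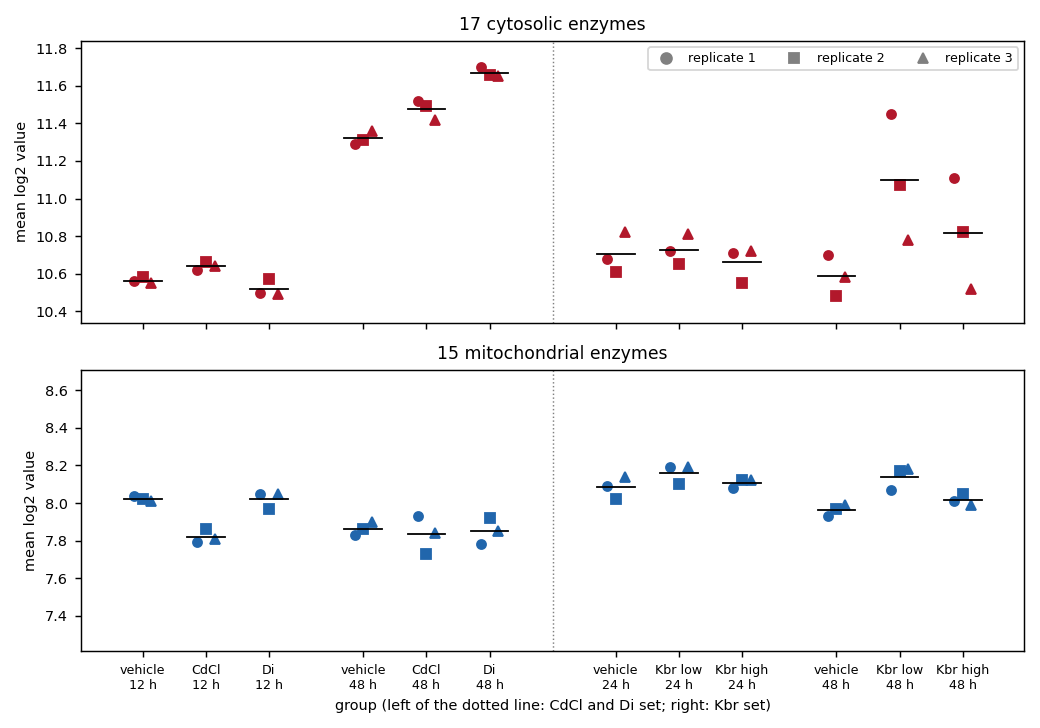
Mean log2 value of the 17 cytosolic genes and of the 15 mitochondrial genes on each array, by group, with a line at the group mean. The cytosolic mean is 10.55 to 10.58 in vehicle at 12 h and 11.65 to 11.70 with Di at 48 h, while the mitochondrial mean stays between 7.73 and 8.19 on the 36 arrays.

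With CdCl at 12 h the lower synthetase genes were mostly mitochondrial. Of the cytosolic genes 2 were higher and 1 lower, and of the mitochondrial genes 1 was higher and 7 lower, where 13.4% of all genes were higher and 30.5% lower (limma, adjusted p below 0.05). The median of all genes was itself shifted by -0.16, and the class medians were 0.09 and -0.28. With each array centred on its median, the cytosolic counts became 6 higher and 1 lower and the mitochondrial counts 2 higher and 3 lower. For cytosolic genes not called, some less bright probe sets gave larger differences: 1.91 for SARS1, 1.88 for CARS1, 1.73 for LARS1 and 0.98 for EPRS1. Further less bright probe sets gave 0.62 for CARS1, 0.06 and 0.01 for LARS1, 0.08 for EPRS1, -0.05 for FARSA and -0.15 for KARS1. These probe sets were not tested singly.

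GARS1 rose with CdCl to 12.15, 12.12 and 12.32 from 11.21, 11.35 and 11.21 in vehicle. All treated arrays lay above all vehicle arrays, a difference of 0.94 (SE 0.24, adjusted p = 0.00206), or 1.11 relative to the median of all genes. IARS1 was higher by 0.28, or 0.44 relative to that median. VARS1, the cytosolic valine enzyme, was 7.00, 7.10 and 6.84 with CdCl and 8.21, 8.09 and 7.95 in vehicle, a difference of -1.11 (SE 0.31, adjusted p = 0.0045), and its less bright probe set gave -0.34. AARS1 was 9.12, 9.12 and 8.88 with CdCl, within the range of its 12 h vehicle arrays or just under it, and the difference of -0.09 did not pass the test (adjusted p = 0.806). So within the cytosolic class GARS1 and VARS1 moved in opposite directions at this time.

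Among mitochondrial genes AARS2 differed most at 12 h, at 6.37, 6.36 and 5.74 against 7.20, 7.18 and 7.09, a difference of -1.0 (SE 0.17, adjusted p = 2.82e-05), though another probe set gave -0.16. HARS2 was 7.85, 7.75 and 7.67 against 8.23, 8.36 and 8.22, a difference of -0.51 (SE 0.11). IARS2 was 11.53, 11.57 and 11.49 against 11.95, 12.09 and 11.97, a difference of -0.47 (SE 0.07, adjusted p = 4.98e-06). These 3 genes stayed past the test after median centring and without any single array. VARS2 (-0.45), LARS2 (-0.33), YARS2 (-0.30) and SARS2 (-0.59) passed in the deposited values and not after centring. SARS2 was also lost without any 1 of the 6 arrays, which with the other losses gave 4 to 6 lower mitochondrial genes. IARS1 was lost without replicate 1 of vehicle or replicate 2 or 3 of CdCl at 12 h, which gave 1 to 2 higher cytosolic genes. RARS2 (arginine) was the mitochondrial exception, higher by 0.56 (SE 0.13, adjusted p = 0.00109). Of the mitochondrial translation factors and tRNA enzymes, 0 of 14 were higher and 6 lower. The summed renal markers lay lower with CdCl (log2 14.50 to 14.55, against 14.76 to 14.84) with 0 of 6 past the test, and 0 of 3 fibroblast markers passed (12.34 to 12.50, against 12.38 to 12.50). Their part in these differences was not tested.

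CdCl at 48 h was compared with vehicle at 48 h. Of the cytosolic genes 5 were higher and 0 lower, and of the mitochondrial genes 2 were higher and 3 lower, where 20.7% of all genes were higher and 22% lower. FARSA was higher by 0.52, LARS1 by 0.41, FARSB (the other phenylalanine subunit) by 0.28, HARS1 by 0.23 and KARS1 by 0.21. Leaving out each of the 6 arrays in turn gave 1 to 3 higher cytosolic genes, the fewest without replicate 1 of vehicle or replicate 1 of CdCl. HARS1 was lost without any 1 of them, while LARS1 was called without each. WARS1 was 11.91, 11.88 and 11.79 with CdCl and 11.72, 11.66 and 11.75 in vehicle, a difference that did not pass the test. AARS1 was 10.94, 11.25 and 10.83 with CdCl against 11.22, 11.26 and 11.48, and SARS1 was 12.43, 12.39 and 12.24 against 12.41, 12.34 and 12.44, neither of which passed the test. The summed renal markers were lower with CdCl at 48 h (log2 14.39 to 14.51, against 14.63 to 14.82; 1 of 6 higher and 2 lower) and the summed fibroblast markers higher (11.49 to 11.75, against 11.33 to 11.46; 0 of 3 higher and 1 lower), and their part was not tested.

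FARS2, the mitochondrial phenylalanine enzyme, was 8.08, 7.83 and 8.21 with CdCl at 48 h against 6.93, 7.19 and 7.24, a difference of 0.92 (SE 0.15, adjusted p = 1.52e-05), whereas its less bright probe set gave 0.17. NARS2 was 9.54, 9.50 and 9.59 against 9.06, 9.13 and 9.22, a difference of 0.41 (SE 0.08). WARS2, for mitochondrial tryptophan, was 7.81, 7.65 and 7.85 against 8.23, 8.37 and 8.43, a difference of -0.57 (SE 0.11, adjusted p = 7.47e-05). SARS2 was 4.91, 4.16 and 4.35 against 5.27, 5.24 and 5.17, close to the floor, a difference of -0.75 (SE 0.24) that was lost without replicate 2 of CdCl. IARS2 was lower at 48 h too, by 0.38 on the log2 scale (SE 0.07, adjusted p = 6.57e-05).

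With Di few of these genes passed at 12 h, and 9 cytosolic ones were higher at 48 h. At 12 h 0 of 17 cytosolic genes passed the test, where 1.67% of all genes were higher and 4.6% lower. At an unadjusted p below 0.05, 2 were higher and 3 lower. Of the mitochondrial genes NARS2 was higher by 0.32 (adjusted p = 0.0201) and IARS2 lower by 0.26 on the log2 scale (adjusted p = 0.0257). NARS2 was lost without replicate 2 or 3 of either group and IARS2 without replicate 2 or 3 of vehicle or replicate 3 of Di, which gave 0 to 2 members.

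At 48 h, 9 of 17 cytosolic genes were higher with Di and 0 lower, and 3 mitochondrial genes were higher and 2 lower, where 19.1% of all genes were higher and 23.9% lower. All 17 cytosolic differences were above 0, with a median of 0.37, beside -0.05 for the mitochondrial genes and -0.01 for all genes. For AARS1, CARS1, GARS1, IARS1, SARS1 and WARS1, which vehicle at 48 h already held above vehicle at 12 h, Di at 48 h had the highest group mean of its set. Of these, AARS1 (0.05) and SARS1 (0.39) did not pass the test against vehicle at 48 h. GARS1 was 13.44, 13.27 and 13.25 with Di against 12.59, 12.61 and 12.61, a difference of 0.72 (SE 0.24, adjusted p = 0.0151). CARS1 was 11.75, 11.85 and 11.68 against 11.04, 10.88 and 11.10, a difference of 0.75 (SE 0.24, adjusted p = 0.0134). Neither gene's groups overlapped, although GARS1 was lost without replicate 1 of Di and CARS1 without replicate 2 of vehicle.

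LARS1 had the lowest p of these rises, at 11.82, 11.84 and 11.73 with Di against 11.13, 11.26 and 11.19, a difference of 0.60 (SE 0.10, adjusted p = 2.52e-05), while its 3 other probe sets gave 0.34, 0.11 and 0.72. IARS1 was 14.02, 14.10 and 14.11 against 13.76, 13.68 and 13.67, a difference of 0.37 (SE 0.09, adjusted p = 0.002). Both calls held without any of the 6 arrays. YARS1 (0.52) was 11.47, 11.42 and 11.49 against 10.84, 11.05 and 10.93, and WARS1 (0.50) was 12.26, 12.13 and 12.25 against 11.72, 11.66 and 11.75. The WARS1 call was lost without any 1 of the 6 arrays and the YARS1 call without any except replicate 2 of vehicle. NARS1 (0.28), KARS1 (0.20) and RARS1 (0.20) made up the rest, and leaving out each array in turn gave 3 to 7 higher cytosolic genes, the fewest without replicate 1 of Di. Of the 5 measured enzymes of the multisynthetase complex 4 were higher, and AIMP1 was higher by 0.74 (SE 0.09, adjusted p = 1.19e-07).

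Among mitochondrial genes EARS2, for glutamate, was 7.96, 7.83 and 7.72 with Di at 48 h against 6.93, 7.12 and 7.30, a difference of 0.72 (SE 0.15, adjusted p = 0.000189). NARS2 was higher by 0.40, at 9.49, 9.60 and 9.53, and RARS2 by 0.36. WARS2 was 7.72, 7.85 and 7.66 against 8.23, 8.37 and 8.43, a difference of -0.60 (SE 0.11, adjusted p = 3.64e-05). SARS2 was 4.56, 4.66 and 4.19 against 5.27, 5.24 and 5.17, a difference of -0.75 (SE 0.24) that was lost without replicate 3 of Di. Leaving out each array in turn gave 2 to 4 higher and 1 to 4 lower mitochondrial genes, and RARS2 was lost without any 1 of the 6.

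The ATF4 and amino acid response list was read beside these counts. With CdCl at 12 h 15 of 32 were higher and 1 lower, with ATF3 higher by 7.18, the cystine carrier gene SLC7A11 by 4.70 and DDIT3 by 3.73, while ATF4 was higher by 0.46. Of all genes 13.4% were higher and 30.5% lower in that comparison. With CdCl at 48 h 5 were higher and 10 lower, where 20.7% of all genes were higher and 22% lower. ATF4 was then lower by 0.35 on the log2 scale. With Di 1 was higher and 1 lower at 12 h, where 1.67% of all genes were higher and 4.6% lower. After 48 h of Di 9 were higher and 2 lower, where 19.1% of all genes were higher and 23.9% lower. ATF4 was higher by 0.26 there, and ASNS, at 0.61, was not past the test (limma adjusted p = 0.246). With Di at 48 h 2 of 3 fibroblast markers (log2 of their sum 10.46 to 10.57, against 11.33 to 11.46) and 3 of 6 renal markers were lower, and their part in the synthetase differences was not tested.

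**Figure D3:**
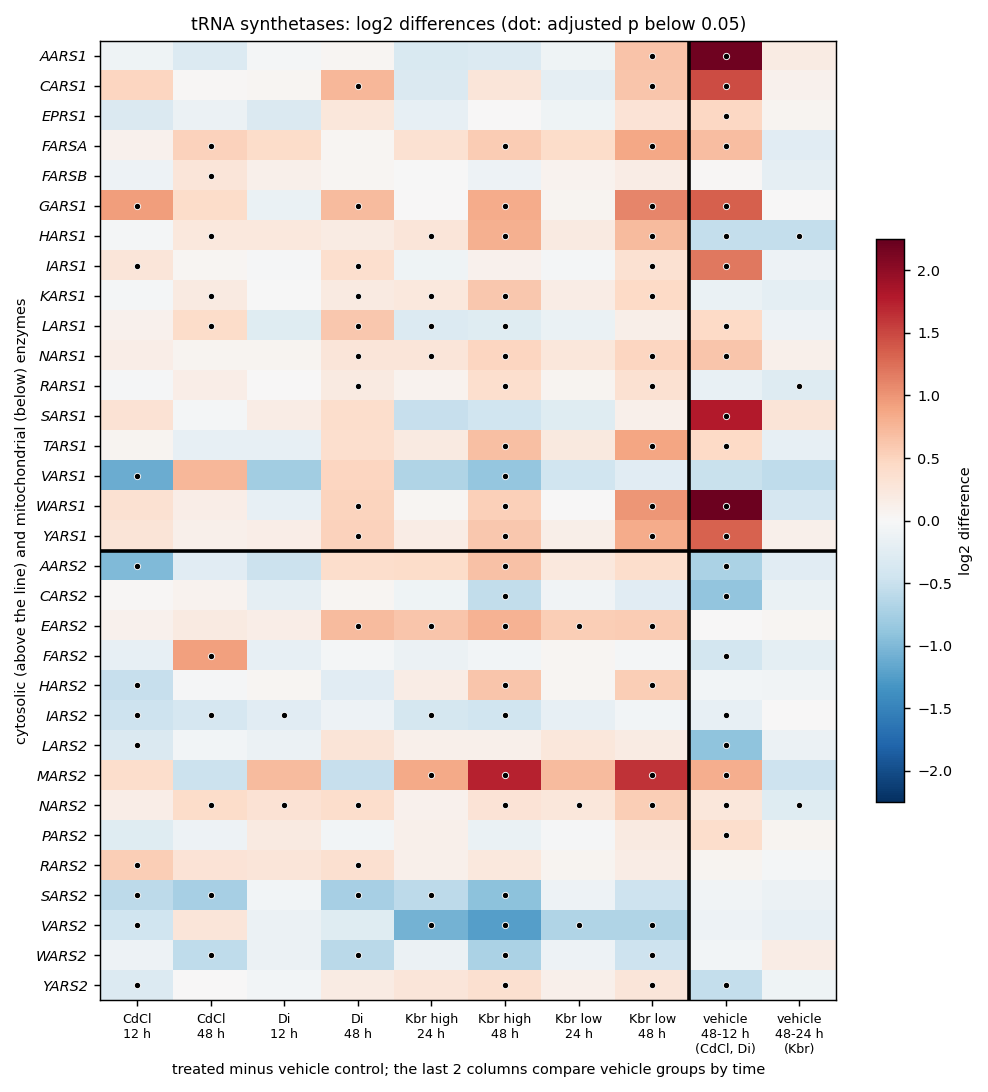
Log2 difference from the vehicle of the same set and time for the 32 measured synthetase genes in the 8 comparisons with vehicle, and between the vehicle times, with calls past the test (limma adjusted p below 0.05) marked. The cytosolic block is mostly higher with Di and with low Kbr at 48 h, whereas the mitochondrial block holds rises of MARS2 and EARS2 beside falls of VARS2, SARS2, WARS2 and IARS2.

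CdCl and Di were also set against each other, without the vehicle arrays. At 12 h, 4 cytosolic genes were higher with CdCl than with Di and 1 lower, and 0 mitochondrial genes were higher and 4 lower, where 13.6% of all genes were higher and 22.1% lower. GARS1 was higher with CdCl by 1.10 (SE 0.24, adjusted p = 0.000615), WARS1 by 0.52, LARS1 by 0.37 and IARS1 by 0.31, whereas HARS1 was lower by 0.27 on the log2 scale. HARS2 was lower by 0.56 on that scale, AARS2 by 0.51, PARS2 by 0.49 and IARS2 by 0.21, though another probe set of AARS2 gave 0.06. Median centring left 2 lower mitochondrial genes, and at an unadjusted p below 0.05 the mitochondrial counts were 1 higher and 8 lower. With each array left out in turn there were 2 to 3 higher and 0 to 1 lower cytosolic genes and 1 to 3 lower mitochondrial genes. GARS1, LARS1 and HARS2 were past the test in all of these, whereas WARS1 was lost without any 1 of the 6 arrays.

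At 48 h the cytosolic balance between the compounds had turned, with 1 gene higher with CdCl and 4 lower, where 20.5% of all genes were higher and 17.1% lower. CARS1 was lower with CdCl than with Di by 0.73 on the log2 scale, TARS1 by 0.55, EPRS1 by 0.38 and IARS1 by 0.33, and FARSA was higher by 0.48. Of the mitochondrial genes 2 were higher and 4 lower. FARS2 was higher with CdCl by 0.98 (SE 0.15, adjusted p = 1.08e-05), where its less bright probe set gave 0.16. VARS2 was higher by 0.54 (SE 0.14), at 9.30, 9.41 and 9.23 with CdCl and 8.70, 8.75 and 8.88 with Di. AARS2 was lower by 0.65, EARS2 by 0.52, LARS2 by 0.35 and IARS2 by 0.26 on the log2 scale. Without any 1 of the 6 arrays FARSA and EPRS1 were lost, and the cytosolic counts became 0 higher and 2 to 3 lower.

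Whether a difference from vehicle changed between 12 h and 48 h was tested as an interaction. The CdCl difference changed upward with time in 2 cytosolic and 4 mitochondrial genes and downward in 1 mitochondrial gene, where 16.4% of all genes changed upward and 7.78% downward. The largest such change was in VARS1, from -1.11 at 12 h to 0.74 at 48 h, an interaction of 1.85 (SE 0.43, adjusted p = 0.00274). At 48 h its values were 8.52, 8.36 and 8.10 with CdCl against 7.68, 7.50 and 7.58, which missed the test on its own (adjusted p = 0.0511). Leaving out each of the 12 arrays gave 1 to 2 upward changes in the cytosolic and 2 to 4 in the mitochondrial class, with VARS1, FARS2 and VARS2 in each. The Di difference changed upward in 4 cytosolic and 2 mitochondrial genes and downward in 2 mitochondrial genes, where 15.1% of all genes changed upward and 13.9% downward. LARS1 (0.87, SE 0.15, adjusted p = 4.44e-05) and AARS2 (0.88, SE 0.24, adjusted p = 0.00629) were the changes that held without any of the 12 arrays, whose omission left 1 to 4 upward changes in the cytosolic class. Less bright probe sets of LARS1 gave -0.36, -0.20 and 0.89 with Di at 12 h and 0.34, 0.11 and 0.72 at 48 h. The last of these did not move upward with time. For AARS2 the less bright probe set gave -0.21 at 12 h and 0.48 at 48 h.

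Kbr at 24 h moved few cytosolic members. At the low dose 0 of 17 cytosolic genes passed the test, where 6.93% of all genes were higher and 8.28% lower, and at an unadjusted p below 0.05, 4 were higher and 0 lower. Of the mitochondrial genes EARS2 was higher by 0.55 (adjusted p = 0.0105) and NARS2 by 0.26 (adjusted p = 0.0307), and VARS2 was lower by 0.67 on the log2 scale (SE 0.14, adjusted p = 0.00217). With the replicate number as a block 7 members passed in place of 3, the others being FARSA (adjusted p = 0.0151), NARS1 (0.0113), VARS1 (0.00139) and IARS2 (0.0334). EARS2 was lost without replicate 2 of vehicle or replicate 3 of Kbr. NARS2 was lost without replicate 1 or 3 of vehicle or replicate 2 or 3 of Kbr. Between 1 and 5 members passed as each array was left out. With low Kbr 2 of 3 fibroblast markers (log2 of their sum 11.55 to 12.03, against 12.20 to 12.69) and 2 of 6 renal markers (14.55 to 14.76, against 14.88 to 15.12) were lower, and their part was not tested.

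At the high dose for 24 h, 3 cytosolic genes were higher and 1 lower, and 2 mitochondrial genes were higher and 3 lower, where 15.4% of all genes were higher and 25.3% lower. HARS1 was higher by 0.28, NARS1 by 0.28 and KARS1 by 0.24, and LARS1 was lower by 0.30 on the log2 scale. VARS2, the mitochondrial valine enzyme, was 7.48, 7.72 and 8.12 against 8.72, 8.90 and 8.90, a difference of -1.07 (SE 0.14, adjusted p = 1.4e-06). IARS2 was lower by 0.40 (adjusted p = 5.64e-05) and SARS2 by 0.59 on the log2 scale, while MARS2 (0.85, adjusted p = 0.0145) and EARS2 (0.62, adjusted p = 0.00115) were higher. With the block FARSA (adjusted p = 0.0205), SARS1 (0.0168), VARS1 (2.53e-06) and AARS2 (0.0373) were called too, and with median centring 4 cytosolic genes were higher and 0 lower and 4 mitochondrial genes higher and 2 lower. Leaving out each array in turn gave 1 to 3 higher and 0 to 1 lower cytosolic genes and 1 to 3 higher mitochondrial genes. VARS2, IARS2 and EARS2 were called in each of these. The 3 fibroblast markers were lower at this dose and time (log2 of their sum 11.24 to 11.70, against 12.20 to 12.69), as were 3 of the 6 renal markers, and their part in these differences was not tested.

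At 48 h of Kbr most cytosolic members were higher than in vehicle. At the low dose 12 of 17 cytosolic genes were higher and 0 lower, and 5 mitochondrial genes were higher and 2 lower, where 23.8% of all genes were higher and 23.2% lower. The medians were 0.48 for the cytosolic and 0.19 for the mitochondrial genes, beside 0.00 for all genes. The gap between the class medians, 0.29, became 0.10 without replicate 1 of Kbr and 0.50 without its replicate 3. The cytosolic member was ahead in 10 of 12 pairs.

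GARS1 was 12.76, 12.19 and 11.50 with low Kbr against 11.36, 10.75 and 11.08 in vehicle, a difference of 1.09 (SE 0.24, adjusted p = 0.000458). WARS1 was 11.00, 10.41 and 9.63 against 9.48, 9.17 and 9.38, a difference of 1.00 (SE 0.20, adjusted p = 0.000191). TARS1 was 12.61, 12.07 and 12.03 against 11.59, 11.15 and 11.32, a difference of 0.88 (SE 0.15, adjusted p = 2.91e-05). In these genes the groups did not overlap, and in GARS1 and WARS1 the Kbr arrays were spread wider than the vehicle arrays. Replicate 1 was the highest and replicate 3 the lowest in each. AARS1 shows the spread most, at 11.09, 10.28 and 9.38 against 9.89, 9.39 and 9.54, where replicate 3 fell below the vehicle arrays and the difference of 0.64 (SE 0.25, adjusted p = 0.0352) was lost without 4 of the 6 arrays in turn: replicates 2 and 3 of vehicle and replicates 1 and 2 of Kbr. CARS1, at 10.40, 10.11 and 9.38 against 9.75, 9.11 and 9.18, was lost without the same 4 arrays.

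YARS1 was 11.28, 10.76 and 10.10 with low Kbr against 10.08, 9.86 and 9.68, a difference of 0.84 (SE 0.20, adjusted p = 0.00112). HARS1 was tight, at 10.24, 10.16 and 10.28 against 9.38, 9.52 and 9.66, a difference of 0.71 (SE 0.09, adjusted p = 3.98e-07). FARSA (0.87), NARS1 (0.48), KARS1 (0.44), IARS1 (0.35) and RARS1 (0.35) were the other higher cytosolic genes. SARS1 was 12.01, 11.33 and 10.69 against 11.56, 11.08 and 11.05, and EPRS1 was 11.87, 11.71 and 11.32 against 11.30, 11.45 and 11.22, and neither passed the test. A less bright probe set of SARS1 gave 1.46, and those of EPRS1 gave 0.31 and 0.33. Between 10 and 14 cytosolic genes were higher when each array was left out in turn. With the replicate block VARS1 was lower (-0.26, adjusted p = 0.0211) and AARS2 higher (0.40, adjusted p = 0.0403).

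At the high dose for 48 h, 9 cytosolic genes were higher and 2 lower, and 6 mitochondrial genes were higher and 5 lower, where 27.3% of all genes were higher and 34.5% lower. HARS1 led in evidence, at 10.40, 10.34 and 10.21 against 9.38, 9.52 and 9.66, a difference of 0.80 (SE 0.09, adjusted p = 1.6e-08). KARS1 was 13.41, 13.49 and 13.32 against 12.67, 12.83 and 12.90, a difference of 0.61 (SE 0.07, adjusted p = 5.06e-08). In both genes all treated arrays lay above all vehicle arrays. GARS1 was 12.48, 12.02 and 11.17 against 11.36, 10.75 and 11.08, a difference of 0.83 (SE 0.24, adjusted p = 0.00348) with overlapping groups, lost without replicate 1 of Kbr. TARS1 (0.68), YARS1 (0.61), FARSA (0.58), WARS1 (0.53), NARS1 (0.48) and RARS1 (0.37) were also higher, with overlapping groups in YARS1 and WARS1. VARS1 was 7.58, 6.89 and 7.74 against 8.53, 7.67 and 8.64, a difference of -0.87 (SE 0.31, adjusted p = 0.0147) with overlapping groups that was lost without replicate 1 or 3 of vehicle or replicate 2 of Kbr, and LARS1 was lower by 0.28 on the log2 scale. With the replicate block VARS1 had an adjusted p of 1.37e-08, SARS1 was lower (-0.45, adjusted p = 0.0238) and RARS2 higher (0.23, adjusted p = 0.019). A less bright probe set of SARS1 went the other way, by 1.24. AARS1, at 9.89, 9.22 and 8.83 against 9.89, 9.39 and 9.54, was not called.

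The replicate numbers bear on these cytosolic rises. Taken number by number against vehicle of the same number, the median cytosolic difference at the low dose was 0.57, 0.55 and 0.25 for replicates 1, 2 and 3, with 16, 16 and 13 of 17 genes above 0. At the high dose it was 0.53, 0.50 and 0.07, with 12, 12 and 9 genes above 0. The difference from vehicle of the same number was lowest for replicate 3 in 15 of 17 cytosolic genes at the low dose and in 14 of 17 at the high dose. Omission of each array in turn gave 5 to 10 higher and 0 to 4 lower cytosolic genes at the high dose, with 5 higher and 4 lower without replicate 1 of Kbr and 10 higher and 1 lower without its replicate 3.

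**Figure D4:**
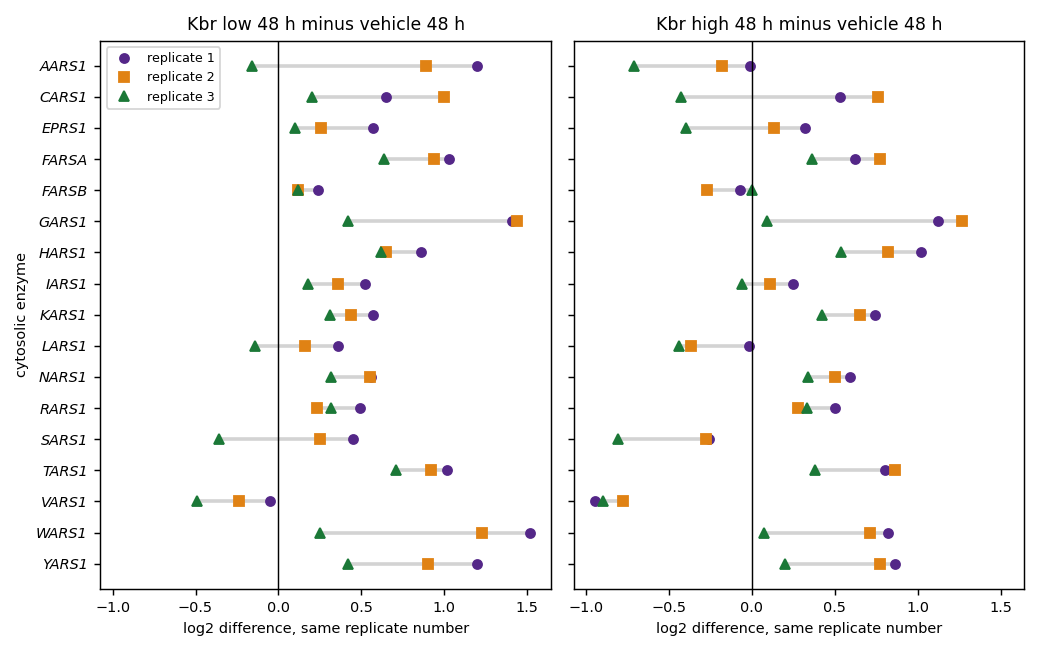
Log2 difference from the vehicle array of the same replicate number for each cytosolic gene with low and with high Kbr at 48 h, with a grey bar over the 3 values. The medians by number are 0.57, 0.55 and 0.25 at the low dose and 0.53, 0.50 and 0.07 at the high dose, replicate 3 being the lowest at both doses.

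The mitochondrial genes at 48 h of Kbr held the largest differences from vehicle in the family. MARS2, which charges methionine for mitochondrial translation, was 7.10, 6.97 and 6.22 at the high dose and 6.80, 6.58 and 6.56 at the low dose, against 4.85, 5.13 and 5.09 in vehicle. All treated arrays were above all vehicle arrays, with differences of 1.74 (SE 0.27, 3.34-fold, adjusted p = 3.43e-06) and 1.62 (SE 0.27, 3.08-fold, adjusted p = 2.15e-05). VARS2 moved the other way, at 7.42, 7.18 and 7.65 at the high dose and 7.75, 7.86 and 8.30 at the low dose, against 8.47, 8.67 and 8.80. Its differences were -1.24 (SE 0.14, adjusted p = 2.39e-08) and -0.68 (SE 0.14, adjusted p = 0.000294).

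SARS2 (serine) was 5.18, 4.69 and 5.29 at the high dose against 6.10, 5.47 and 6.36, a difference of -0.92 (SE 0.24, adjusted p = 0.00134). At the low dose it was 5.84, 5.28 and 5.41, a difference of -0.46 that passed the test only with the replicate number as a block (adjusted p = 0.00703, against 0.111). WARS2 was lower at both doses, by 0.72 at the high dose (adjusted p = 1.38e-06) and by 0.46 at the low dose on the log2 scale (adjusted p = 0.000819), where its less bright probe set gave -0.13 and -0.04. IARS2 was 11.64, 11.72 and 11.76 at the high dose against 12.05, 12.27 and 12.14, a difference of -0.45 (SE 0.07, adjusted p = 3.84e-06), and 12.07, 12.09 and 12.08 at the low dose, not past the test. EARS2 was higher by 0.79 and 0.57 at the high and low dose, NARS2 by 0.30 and 0.55, and YARS2 by 0.36 and 0.28. AARS2 was higher at the high dose alone by the test, by 0.66, and CARS2 was lower there by 0.56 on the log2 scale, a call lost without replicate 1 of vehicle or replicate 1 or 2 of Kbr. LARS2 was 8.46, 8.65 and 8.59 at the high dose and 8.31, 8.77 and 8.85 at the low dose against 8.34, 8.54 and 8.49, in neither case past the test.

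**Figure D5:**
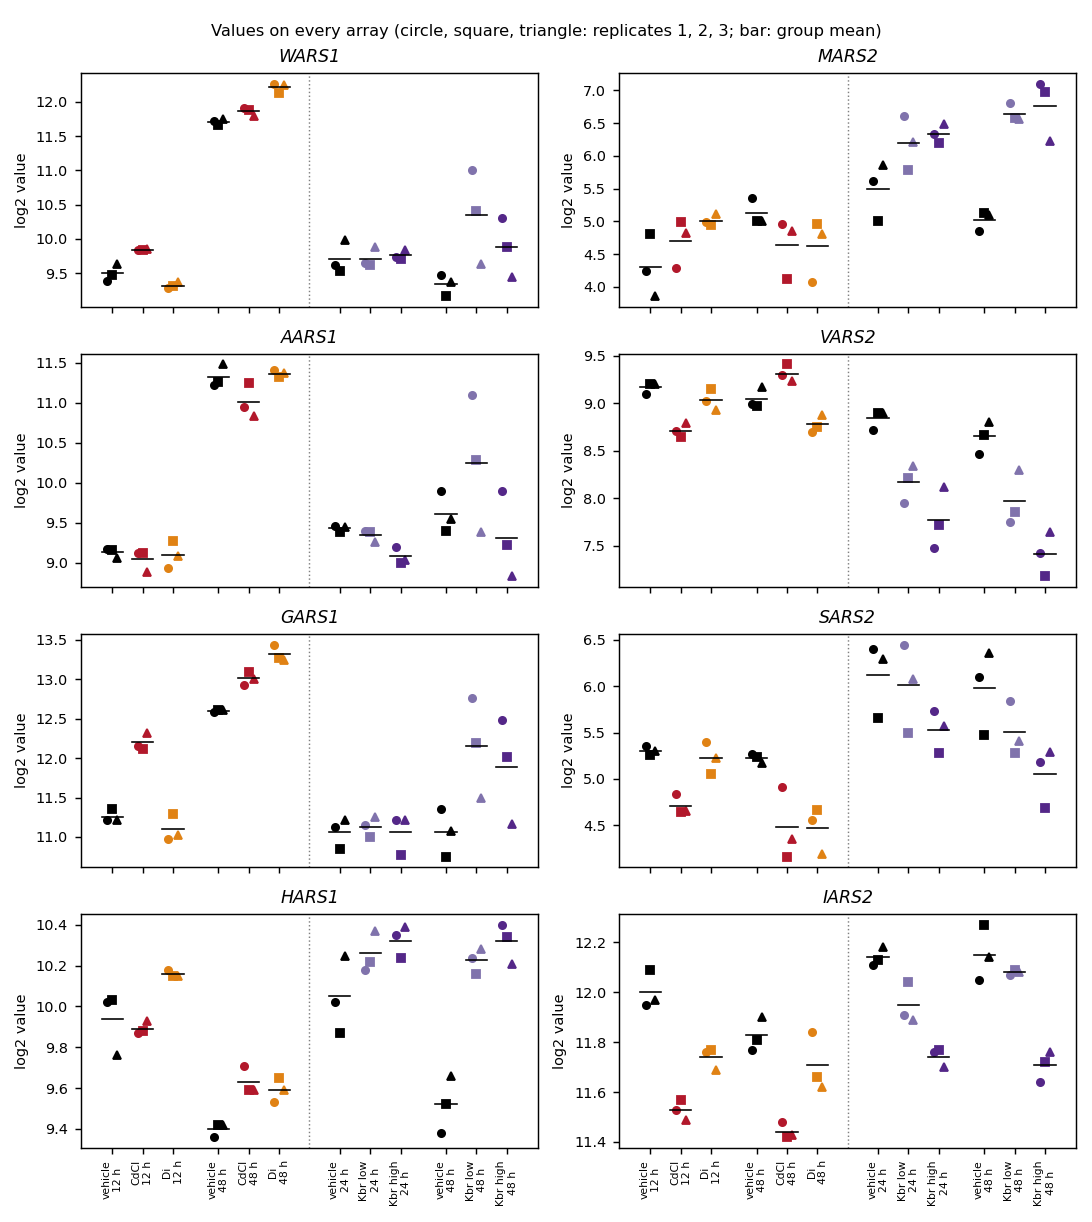
Log2 value on every array for WARS1, AARS1, GARS1 and HARS1 (cytosolic) and MARS2, VARS2, SARS2 and IARS2 (mitochondrial), by group, with a line at the group mean. WARS1 and AARS1 step up between 12 h and 48 h in all arms of the first set, MARS2 is highest with Kbr and VARS2 lowest with Kbr.

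The amino acid response list was read beside these counts too. At 48 h 19 of 32 genes were higher and 0 lower with low Kbr (median 0.96), where 23.8% of all genes were higher and 23.2% lower. With high Kbr 12 were higher and 3 lower, where 27.3% of all genes were higher and 34.5% lower. ATF4 was higher by 0.59 at the low dose, at 13.19, 13.29 and 13.12 against 12.80, 12.58 and 12.46, and by 0.21 at the high dose. DDIT3 was higher by 3.04 and 2.18 at the low and high dose, and ASNS by 1.30 at the low dose, whereas its 0.14 at the high dose did not pass (adjusted p = 0.797). AIMP1 was higher by 0.57 at the low and 0.69 at the high dose. The 3 fibroblast markers were lower at both doses (log2 of their sum 10.19 to 10.75 at the low and 10.02 to 10.40 at the high dose, against 12.09 to 12.21), and 4 of the 6 renal markers were lower at each dose. Their part in the synthetase differences was not tested.

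High and low Kbr were compared directly. At 24 h 0 of 32 members passed the test, where 0.685% of all genes were higher and 3.71% lower at the high dose. At an unadjusted p below 0.05, 0 were higher and 2 lower, and with the replicate block 3 were lower (IARS2, SARS2 and VARS2). At 48 h 5 members were lower at the high dose and 0 higher, where 6.46% of all genes were higher and 17.3% lower. AARS1 was lower by 0.94 on the log2 scale (SE 0.25, adjusted p = 0.00626), VARS2 by 0.55, LARS1 by 0.41, IARS2 by 0.37 and NARS2 by 0.24. With the block 11 members passed. With median centring the cytosolic counts were 1 higher and 2 lower and the mitochondrial counts 0 and 0. Omitting each array in turn gave 0 to 8 lower cytosolic genes, with 0 without replicate 1 of the low dose, 7 without replicate 1 of the high dose and 8 without replicate 3 of the low dose, and AARS1 was lost without replicate 3 of the high dose or replicate 1 of the low dose. The high dose difference from vehicle changed upward between 24 h and 48 h in 3 cytosolic genes and 1 mitochondrial gene and downward in 1 mitochondrial gene, where 6.89% of all genes changed upward and 8.1% downward.

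The histidine genes lie head to head on chromosome 5, with 84 bases between their annotated starts (RefSeq, GRCh38.p14, chr5:140691371-140691454), and this stretch is shown because the genes share it. The sequence of the plus strand has CCGGAA, a core read by ETS-family factors, and its reverse complement in capitals.
HARS1-HARS2: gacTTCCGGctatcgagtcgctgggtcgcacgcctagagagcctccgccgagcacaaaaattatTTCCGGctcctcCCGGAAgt
It holds 3 matches, on both strands, and 17.2% of all promoter windows hold at least 1. Among the synthetase windows this core was present in 14 of 21 cytosolic and in 9 of 18 mitochondrial ones, so it is not particular to this pair. HARS2 was 8.78, 8.81 and 8.50 with high Kbr at 48 h and 8.68, 8.82 and 8.38 with low Kbr, against 8.02, 8.17 and 8.02 in vehicle, differences of 0.63 (SE 0.11, adjusted p = 9.87e-06) and 0.56 (SE 0.11, adjusted p = 9.89e-05). HARS1 was higher in the same comparisons by 0.80 and 0.71, so both genes of the pair were above vehicle with Kbr at 48 h. Between 24 h and 48 h the HARS1 mean was 10.32 and 10.32 with high Kbr and 10.26 and 10.23 with low Kbr. Over the same times vehicle went from 10.05 to 9.52. In some other comparisons their calls differed. In vehicle between 12 h and 48 h HARS1 fell by 0.54 on the log2 scale while HARS2 was 8.23, 8.36 and 8.22 and then 8.07, 8.34 and 8.19, and with CdCl at 12 h HARS2 was lower by 0.51 while HARS1, at 9.87, 9.88 and 9.93, was within the range of vehicle.

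Over the 8 comparisons with vehicle, 14 of 17 cytosolic genes were higher at least once and 2 (LARS1 and VARS1) were lower at least once. Of the 15 mitochondrial genes 8 were higher and 9 lower at least once, with 3 in both counts. Of all 11092 genes 49.3% were higher and 59.2% lower at least once. NARS2 was higher in 6 of the 8 comparisons, and EARS2 and KARS1 in 5 each. IARS2, SARS2 and VARS2 were lower in 5 each and WARS2 in 4. SARS1, EPRS1 and PARS2 were never past the test in those comparisons without the replicate block, although SARS1 was among the genes that rose most between the vehicle times. These counts rest on the brightest probe set of each gene, and less bright ones of SARS1 and EPRS1 differed from it in places. Comparisons that share vehicle arrays are not independent of each other.

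The 2 sets share no arrays, so the calls of one can be laid beside those of the other. Of the 9 cytosolic genes higher with Di at 48 h and the 12 higher with low Kbr at 48 h, 8 were in both lists (CARS1, GARS1, IARS1, KARS1, NARS1, RARS1, WARS1 and YARS1). Over all genes the shared ones were 47.2% of those higher with Di and 37.9% of those higher with low Kbr. With high Kbr 6 genes were shared of 9 and 9, where the shares over all genes were 50.2% and 35.2%. Of the 5 cytosolic genes higher with CdCl at 48 h, 3 (FARSA, HARS1 and KARS1) were also higher at both doses of Kbr at 48 h, where over all genes 41.5% of those higher with CdCl were higher at the high and 38.3% at the low dose. The 3 mitochondrial genes lower with CdCl at 48 h (IARS2, SARS2 and WARS2) were all among the 5 lower with high Kbr at 48 h, a share that was 53.3% over all genes. No overlap was tested. Less bright probe sets existed for 15 members, and of 58 called values with such a probe set 20 were less than 50% as large or of the opposite sign in at least 1 of them. The opposite sign was found in 2, those of LARS1 between the vehicle times and of AARS2 between CdCl and Di at 12 h. These called values were direct differences between groups, and the changes of an effect with time were not among them.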

How the data were processed

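Total RNA of HK-2 cells was turned into biotin-labelled cRNA and hybridised to single-colour arrays, per the labels' protocols. What was deposited is the authors' log2 value for each probe set after GCRMA, per the submitters' processing notes. Its version is not given in the sources used here. Values ran from 0.714 to 16.1, and array medians from 2.91 to 3.02. GCRMA leaves a floor of background, so differences of dim genes may be understated, which was not tested.

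Groups came from the sample labels. Of 54675 probe sets 62 controls were left out, and 23599 lay above 4 on at least 3 arrays. A single gene was annotated to 41091 of the probe sets, more than 1 gene to 1801, and 11721 had no gene. All 36 arrays entered one model of 12 group means in limma 3.58.1 (R 4.3.3, lmFit and eBayes), p-values adjusted by Benjamini-Hochberg over 11092 genes, and 0.05 as the threshold. SEs are those of this model. The script was tested on simulated data.

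The members and lists were chosen with earlier results of these data known. Named genes were all measured members, with values on each array for those the results turn on, ATF4, ASNS, DDIT3 and AIMP1, and the genes of a list that moved most. Replicate numbers were taken to pair the Kbr arrays on the data alone, since same-numbered arrays deviated together in 45 of 45 pairs (r = 0.218 to 0.701); in the CdCl and Di set 8 of 45 pairs passed r = 0.1. Alternatives were median centring, quantile normalization, a variance trend, a floor of 6 or none, probe sets averaged per gene, each set alone, a replicate block, GARS1 and KARS1 left out, and each array left out in turn.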

Additional observations from a re-analysis of the deposited data

Results flagged for a closer look

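The members below had a difference from vehicle that itself differed between the times, by the interaction test of the model (limma, adjusted p below 0.05). Values are the later difference minus the earlier one, on the log2 scale.

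For CdCl from 12 h to 48 h there were 7 members, where 24.2% of all genes passed the same test. The value was 0.41 for FARSB and 1.85 for VARS1 among the cytosolic genes. It was 0.74 for AARS2, 1.12 for FARS2, 0.49 for HARS2, 0.72 for VARS2 and -0.46 for WARS2 among the mitochondrial genes. VARS1, FARS2 and VARS2 held without any of the 12 arrays.

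For Di from 12 h to 48 h there were 8 members, where 29% of all genes passed. The value was 0.57 for EPRS1, 0.40 for IARS1, 0.87 for LARS1 and 1.25 for VARS1. Less bright probe sets of EPRS1 gave 0.81 and -0.12 with Di at 12 h and 0.22 and 0.13 at 48 h. The first of these went downward with time. It was 0.88 for AARS2, 0.57 for EARS2, -1.22 for MARS2 and -0.47 for WARS2. MARS2 lies close to the floor of 4 in this set, and its value rests on vehicle rising from 3.86 to 4.81 at 12 h to 5.00 to 5.36 at 48 h while Di held 4.95 to 5.11 and then 4.08 to 4.96.

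For high Kbr from 24 h to 48 h there were 5 members, where 15% of all genes passed. The value was 0.52 for HARS1, 0.37 for KARS1, 0.29 for RARS1, 0.47 for HARS2 and -0.58 for WARS2. The HARS1 mean with high Kbr was 10.32 at both times, while vehicle went from 10.05 to 9.52. That of RARS1 was 11.63 and 11.64 with high Kbr, while vehicle went from 11.55 to 11.27. KARS1 and HARS2 went up with high Kbr, from 13.26 to 13.41 and from 8.30 to 8.70. HARS1 and WARS2 held without any of the 12 arrays. In all 3 series of differences WARS2 was further below vehicle at 48 h than at the earlier time.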

How the results depend on the processing

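Of 160 called member values, 100 kept direction and call under the 8 other settings, 78 of them also with each array left out, and 0 changed sign. Members called moved by over 1.5 times as follows. With each set fitted alone: CdCl 48 h 17, Di 12 h 7, low Kbr 24 h 1, high against low Kbr 48 h 3, CdCl against Di 17 at 12 h and 18 at 48 h, change of the CdCl effect 13, of the Di effect 15, of the high Kbr effect 2, vehicle 48 h against 24 h 1. With the replicate block: Di 12 h 7, low Kbr 24 h 7, high against low Kbr 3 at 24 h and 11 at 48 h, CdCl against Di 12 h 14, vehicle 48 h against 24 h 5. With a variance trend: low Kbr 24 h 5, high against low Kbr 48 h 9. With no filter: high against low Kbr 24 h 1, change of the Di effect 5. With median centring: high against low Kbr 48 h 3, vehicle 48 h against 24 h 1. With quantile normalization: change of the high Kbr effect 3.

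The cytosolic minus the mitochondrial median moved to 0.28 (CdCl 12 h, main 0.37), 0.29 (Di 48 h, 0.42) and 0.75 (vehicle 48 h against 12 h, 0.71) with quantile normalization. With the mean of probe sets it moved to 0.43 (CdCl 12 h), -0.43 (change of the CdCl effect, -0.25), 0.09 (change of the Di effect, 0.29) and 0.88 (vehicle 48 h against 12 h). It changed sign with an array left out for high Kbr 24 h (-0.11, 0.02 without vehicle replicate 3), low Kbr 24 h (0.02; -0.09, -0.08, -0.01 and -0.05 without vehicle replicates 1 and 2 and Kbr replicates 1 and 3), Di 12 h (0.06, -0.02 without Di replicate 2), high against low Kbr at 24 h (-0.04, 0.01 without replicate 2 of either) and 48 h (-0.20, 0.05 without high replicate 3 and 0.07 without low replicate 1), and vehicle 48 h against 24 h (0.01; -0.03 and -0.07 without replicate 1 of 24 h and of 48 h). The causes were not tested.

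Leaving out each array in turn, members called ranged over 7 to 10 for CdCl 12 h, 6 to 8 for CdCl 48 h, 0 to 2 for Di 12 h, 8 to 12 for Di 48 h, 1 to 5 for low Kbr 24 h, 0 to 1 and 3 to 12 for high against low Kbr at 24 h and 48 h, 5 to 7 and 7 to 9 for CdCl against Di at 12 h and 48 h, 4 to 8 for the change of the CdCl effect and of the Di effect, 2 to 11 for that of high Kbr, and 1 to 5 for vehicle 48 h against 24 h. The median difference ranged over 0.28 to 0.40 for CdCl 12 h, 0.25 to 0.50 for Di 48 h, 0.10 to 0.50 for low Kbr 48 h (main 0.29), 0.16 to 0.49 for high Kbr 48 h (0.26), -0.40 to 0.07 for high against low Kbr 48 h, -0.21 to 0.02 for high Kbr 24 h, -0.09 to 0.10 for low Kbr 24 h, -0.36 to -0.15 for CdCl against Di 48 h, -0.36 to -0.16 for the change of the CdCl effect and 0.68 to 0.79 for vehicle 48 h against 12 h. With 3 arrays a group and dim probe sets such as MARS2 and SARS2 near the floor, small differences were not detectable.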
